A study of Homo sapiens with 4 samples.

Results

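The regions described here are the places in the genome where TBX3 peaks stood highest in both replicates of a ChIP-seq experiment in a human melanoma cell line. The peaks of each replicate were ranked by their deposited peak score, summits of the 2 lists were paired where each was the other's nearest within 200 bp, and the pairs ranked 1000 or better in both lists were kept. This gave 789 regions of 22702 shared by the lists (3.48%), which were 32479 and 40494 peaks long. Because the regions were selected on the scores, their scores and ranks are given as a description with no test.

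The cells were 501mel, an established melanoma line, in which TBX3 carried a triple HA tag, a short peptide recognised by the antibody 12CA5. Both ChIP samples were of this one line and one condition, and no input data entered the comparison, since input was not analysed here. The labels name no treatment, no expression system and no untagged or TBX3-free control for the ChIP, and they do not say whether the replicates were separate cultures. Read depth is unknown, and the lists give a single summit base per peak.

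TBX3 belongs to the T-box transcription factors, which bind DNA through a shared T-box domain that recognises a core resembling GGTGTGA. It is known mainly as a repressor in development of the limb, heart and mammary gland, and it is present in melanocytes and melanomas. E-cadherin (CDH1) and the cell cycle inhibitors of the CDKN2A locus are among the genes it is known to repress. Pigment cell enhancers often carry the E-box CACGTG or the M-box CATGTG, which are bound by MITF, the master regulator of the melanocyte lineage.

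Sequence could be read for the few regions that lay in a promoter window, 250 bases before to 50 bases after a RefSeq start site (GRCh38.p14). A summit of the 789 regions fell in 16 of the 35116 windows. Of the 17 regions that the peak lists call promoters 7 lay in a window. The other window regions are called intergenic or intronic there. The stretches below are cut to bases before the start site. They show the strongest such region, both windows with a T-box half-site and examples of the E-box and the M-box. ARID5B and TNFRSF19 hold none of the motifs in their windows and stand beside the others for comparison. Capitals mark the T-box half-site GGTGTGA, the E-box CACGTG or the M-box CATGTG on either strand, and each sequence runs 5′ to 3′ on the strand of the gene.

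ARID5B (chr10:62049137-62049337, plus strand): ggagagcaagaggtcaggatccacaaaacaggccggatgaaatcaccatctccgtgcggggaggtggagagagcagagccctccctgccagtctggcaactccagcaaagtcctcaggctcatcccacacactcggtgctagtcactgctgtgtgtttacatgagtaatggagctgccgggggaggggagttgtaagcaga
LOC105376387 (chr10:6987679-6987875, minus strand): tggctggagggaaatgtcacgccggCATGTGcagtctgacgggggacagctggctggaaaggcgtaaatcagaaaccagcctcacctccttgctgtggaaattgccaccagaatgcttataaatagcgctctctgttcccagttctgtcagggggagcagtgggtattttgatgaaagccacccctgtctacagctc
LINC02946 (chr2:105610560-105610740, minus strand): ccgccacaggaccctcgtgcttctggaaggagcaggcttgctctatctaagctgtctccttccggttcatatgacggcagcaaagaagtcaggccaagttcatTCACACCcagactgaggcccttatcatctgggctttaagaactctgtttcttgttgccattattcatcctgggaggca
LOC105372652 (chr20:49772354-49772554, minus strand): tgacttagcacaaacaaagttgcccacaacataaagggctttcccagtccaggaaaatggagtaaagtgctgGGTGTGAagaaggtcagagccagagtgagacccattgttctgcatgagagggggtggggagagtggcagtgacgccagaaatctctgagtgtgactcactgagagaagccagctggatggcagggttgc
TNFRSF19 (chr13:23570162-23570333, plus strand): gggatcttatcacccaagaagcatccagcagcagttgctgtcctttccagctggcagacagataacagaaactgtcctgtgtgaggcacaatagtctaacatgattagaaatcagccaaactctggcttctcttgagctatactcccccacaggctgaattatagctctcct
ALK (chr2:29223922-29224073, minus strand): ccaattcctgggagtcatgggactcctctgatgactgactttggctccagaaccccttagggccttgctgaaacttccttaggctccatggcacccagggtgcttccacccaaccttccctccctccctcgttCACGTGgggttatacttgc

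The replicate 1 summit is base 101 of the first 4 sequences, base 72 for TNFRSF19 and base 52 for ALK. In LINC02946, a long noncoding RNA that the peak lists call LOC285000, the half-site read on the opposite strand (TCACACC) had its centre at 6 bp from the replicate 1 summit and at -3 bp from the replicate 2 summit, counted as positive towards the start site, and so lay between them. In LOC105372652 the half-site lay at -25 bp from both summits. The E-box of ALK lay at 84.5 and 49.5 bp from the summits of replicates 1 and 2, and the M-box of LOC105376387 at -72.5 and -73.5 bp. The M-box nearest to a summit, in the window of INPP4B at -6.5 and -19.5 bp, lay past the start site and is not printed. Those of LOC105370913 (58.5 and 94.5 bp) and HMGA2-AS2 (-86.5 and -73.5 bp) lay about as far away as the one shown. LOC124903643 held an M-box at -279.5 and -326.5 bp and another at -73.5 and -120.5 bp. The E-box of LINC02248 lay at -146.5 and -141.5 bp.

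The half-site was present in 2 of the 16 windows (12.5%, 95% exact binomial interval 1.55 to 38.3), in 27 of the 388 windows that held only another shared summit (6.96%) and in 1211 of all 35116 windows (3.45%). The E-box was in 2 of the 16 (12.5%), in 17.8% of the 388 and in 7.26% of all. The M-box was in 5 of the 16 (31.3%), in 19.6% of the 388 and in 11.1% of all. None of the 3 motifs overlaps another in its letters, and with 16 windows the intervals are wide. These matches describe letters in the windows only, and no sequence was read for the regions outside them.

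The strength of the 789 regions spanned a wide range in each list. In replicate 1 the lowest score was 148.6, the median 237.3 and the highest 789.3. In replicate 2 the lowest was 226.5, the median 349.3 and the highest 805.6. The other shared regions had medians of 18.4 and 27.4. The 2 ranks of a region differed by a median of 89 places (quartiles 34 and 176, highest 600). Of the first 10 peaks of each list 7 were the same regions, of the first 100 there were 81 in common, and of the first 1000 there were 789, so the common share lay between 70 and 83% at every limit from 10 to 5000 that was counted.

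**Figure D1:**
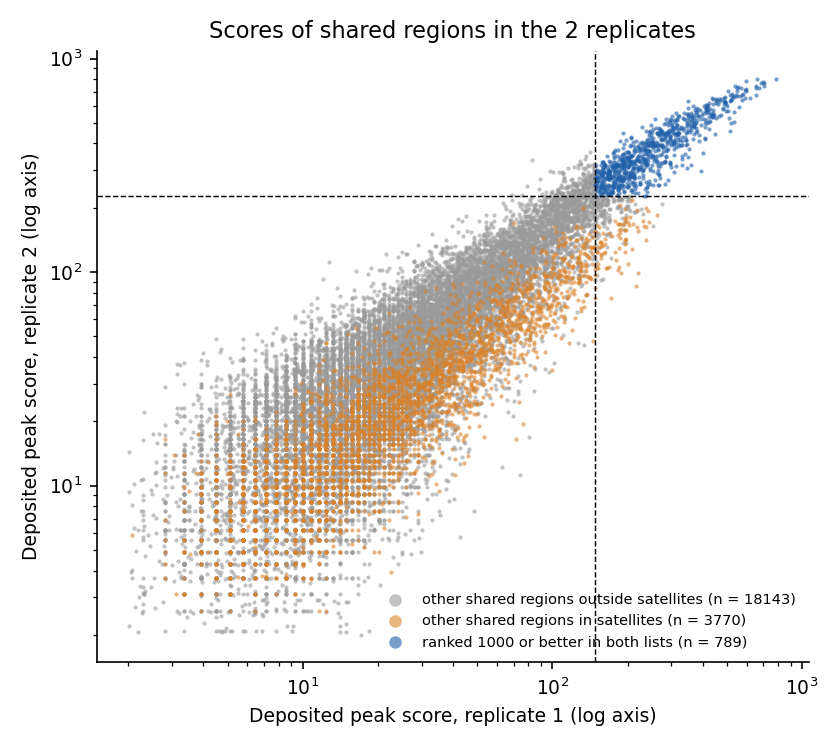
Deposited peak score of each shared region in replicate 1 and replicate 2, both on log axes, with dashed lines at the scores of rank 1000 in each list. The 789 regions (blue) fill the upper right corner, and satellite regions (orange) sit to the right of the grey regions, with higher replicate 1 scores for a given replicate 2 score.

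The limit cut through a continuous range. Just inside it lay an intron of FNIP2, ranked 1000 and 794 with scores of 148.6 and 256.6, and an intergenic region near TMEM247, ranked 400 and 1000 with scores of 237.6 and 226.5. Just outside lay introns of AXIN1, ranked 544 and 1001 with scores of 203.7 and 226.2, and a region with CD36 nearest, ranked 1002 and 704 with scores of 148.6 and 273.4. In replicate 1 the limit fell inside a run of 12 peaks with the same score, which only their order in the list separated.

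The summits of the 2 replicates coincided closely. The median distance between them was 14 bp (quartiles 6 and 24, highest 182), against 29 bp in the other 21913 shared regions. Summits lay within 10 bp of each other in 332 of the 789 (42.1%, 38.6 to 45.6) and in 22.2% of the others, and within 50 bp in 95.6% and 70.5%. The 2 summits had the same annotation class in 786 of the 789 regions and the same nearest gene in 786. The repeat class was the same in 770 and differed in 19. The annotation of replicate 1 is used from here on.

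**Figure D2:**
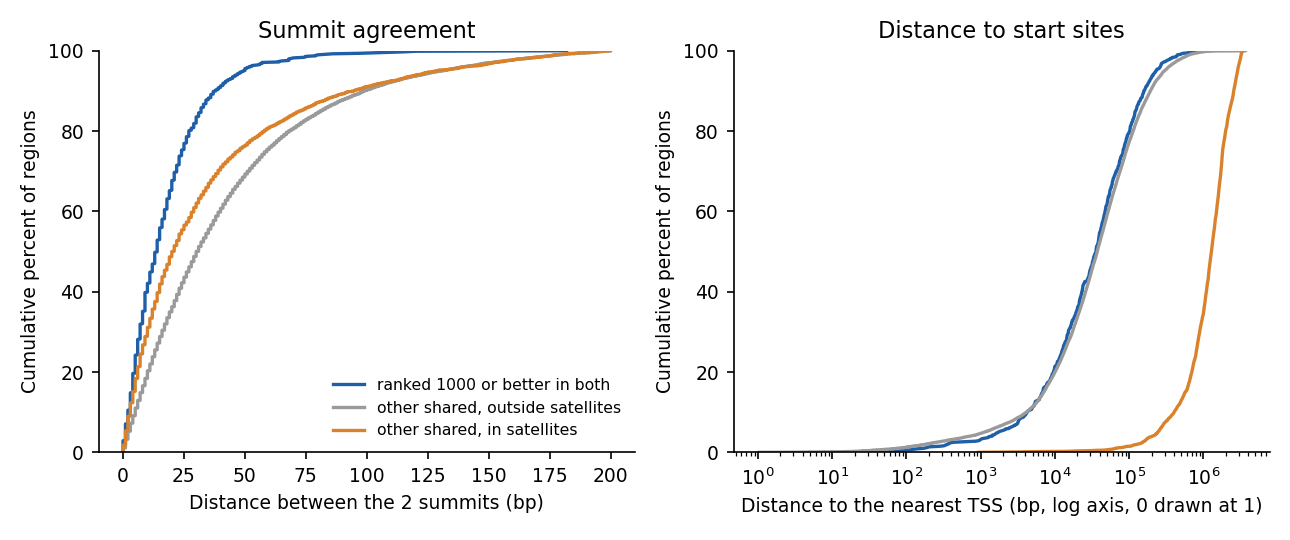
Cumulative percent of regions by distance between the 2 summits (left, bp) and by distance to the nearest start site (right, bp, log axis). The 789 regions (blue) rise fastest on the left with a median of 14 bp, and on the right they run close to the other regions outside satellites (grey), with medians of 35618.5 and 37181 bp, while satellite regions (orange) lie far from genes.

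The 10 regions with the lowest rank sum had HEY1, KAT2B, ADAMTS9, MIR4431, DRAM1, STXBP6, CTNND1, KIDINS220, LOC100192426 and ERP27 as nearest genes, with replicate 1 scores of 594.0 to 789.3 and replicate 2 scores of 730.9 to 805.6. The next 20 scored between 523.6 and 652.7 in replicate 1 and between 640.5 and 740.9 in replicate 2, and they included exons and a 3′ UTR besides introns and intergenic sequence. None of the first 30 was annotated as a promoter, beside 2.15% of all 789, and 30 regions are too few to tell these apart. A region among the first 30 that scored 542.5 and 673.3 lay 433 bp from a start site.

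An exon of NFIA, a transcription factor of the nuclear factor I family, held the eleventh region (chr1:61404161), with scores of 595.9 and 717.0, although the antisense gene NFIA-AS1 is the nearest start site in the list. An exon of ROPN1B, which encodes a ropporin of the sperm fibrous sheath, scored 540.6 and 740.9 (chr3:125975607). An exon of its close paralog ROPN1 scored 480.7 and 580.7 (chr3:123976956). Both copies thus carried a strong exonic summit, and both values are uncertain where reads fit either copy.

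Regulatory and signalling genes were also among the nearest genes of regions 11 to 30 by rank sum. BMP10, a secreted BMP ligand of the heart, had a region at 38994 bp with scores of 594.1 and 707.0. ZFYVE9, the SMAD anchor SARA, had one in its intron 1 with scores of 580.9 and 681.8. ARNT2, a bHLH-PAS partner protein, had one in its intron 4 with scores of 523.6 and 681.2. None of these 3 lay within 10 kb of a start site. MICAL2, an actin-oxidising enzyme, had a region 9590 bp upstream of its start site with scores of 563.4 and 669.4, and a 3′ UTR region of FNBP1L, an F-BAR membrane protein, had BCAR3 as its nearest start site and scores of 531.1 and 669.4. The remaining regions of this group had FAM83C, LINC01344, HAUS5, LOC103344931, COL1A2-AS1, CGGBP1, LINC02205, SERPINA10, SPATA31D5P, LINC01622, LOC102724484, LINC01140 and ACYP2 as nearest genes.

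**Figure D3:**
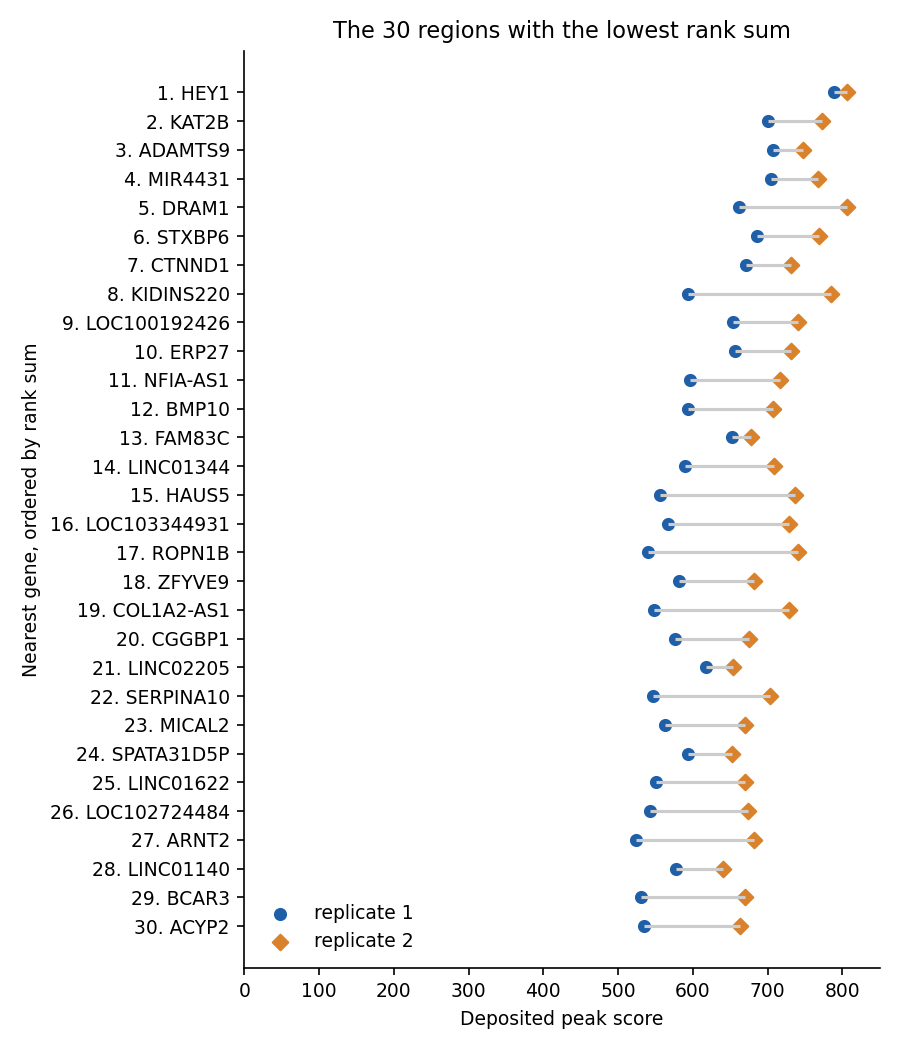
Deposited peak scores of the 30 regions with the lowest rank sum in replicate 1 (circles) and replicate 2 (diamonds), labelled by nearest gene. Each replicate 2 score lies above the replicate 1 score of the same region, on separate scales whose relation is unknown, and the HEY1 region is first in replicate 1 and shares the highest score of replicate 2 with the DRAM1 region.

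Nearly all regions lay in introns or between genes. An intron held 390 of the 789 (49.4%, 45.9 to 53.0) and intergenic sequence 343 (43.5%, 40.0 to 47.0). Exons held 15 (1.9%), transcription termination sites 10, 3′ UTRs 8, noncoding exons 3 and 5′ UTRs 2, and 1 region was not annotated. The first intron accounted for 135 of the 390 intronic regions (34.6%), against 31.6% in the other shared regions.

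Whether these shares differ from the rest of the shared regions depended on satellite DNA, the tandem repeats of centromeres. Of the other 21913 shared regions 39.4% were intronic and 53.5% intergenic. With satellites left out, 47.5% of the 18143 remaining were intronic and 44.5% intergenic, close to the shares of the 789. Exons were 1.9% (1.07 to 3.12) of the 789 and 1.17% of the others outside satellites. No test of these differences was run, and the intervals cover counting error only.

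Promoters were few. The annotation called 17 of the 789 promoters (2.15%, 1.26 to 3.43), against 3.06% of the other shared regions outside satellites (2.82 to 3.33). A start site lay within 1 kb of 25 regions (3.17%) and of 4.72% of those others. By rank, promoters made up 2.9% of the first 1000 peaks of replicate 1 and 2% of those of replicate 2, then 3.8% of ranks 1001 to 2000 in both lists and 4.5% and 4.6% of ranks 2001 to 3000. The share was lower again further down, at 2.8%, 3.2% and 2.5% in the 3 bands from rank 7001 to 10000 of replicate 1 and at 2.9%, 3% and 3.7% in those of replicate 2. Over all peaks it was 2.33% and 2.12%, so the first 1000 of replicate 1 were not below their list as a whole.

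ARID5B, a DNA-binding protein of the ARID family, had the strongest promoter region, with scores of 561.7 and 593.0 and a summit 26 bp after the start site used in the peak list (chr10:62049237). The same summit is at -120 bp from the RefSeq start site of the window printed above, which is a different start. The LOC285000 promoter shown above scored 374.5 and 543.2. TMCC3 scored 319.3 and 535.3, TNFRSF19, a TNF receptor family member, 275.3 and 358.3, and FAM69C 285.0 and 347.4. The other 12 promoters scored between 157.5 and 299.9 in replicate 1, a range that takes in TNFRSF19 and FAM69C. The promoter of DUSP6, a phosphatase that inactivates ERK, scored 240.1 and 235.8, with its summit 63 bp after the start site. The promoter of an alternative transcript of ALK, a receptor tyrosine kinase, scored 204.2 and 324.3. TRPM1, the melanocyte channel first described as melastatin, scored 174.4 and 250.1 at a summit 378 bp before its start site. LINC01780, KU-MEL-3, DLGAP1-AS1, KIFC3, FAM214A, GAL3ST4, CAPN3 and SLAIN1 were also promoter regions.

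The other genic classes were spread over unrelated genes. Termination sites were those beside ERP27 (655.9 and 730.9), ACADS (321.3 and 446.0) and MIR3190 (295.3 and 418.7). Besides FNBP1L, 3′ UTR summits lay in ZHX3 (536.2 and 505.6) and DTX3L (330.9 and 394.2). The 2 summits in 5′ UTRs were in FMN1 (160.1 and 328.6) and SLC39A14 (177.2 and 295.0). A noncoding exon with TNFAIP3 as nearest gene scored 404.0 and 522.0, one with MIR6820 nearest 347.4 and 307.4, and one of LINC01588 212.9 and 287.6. The MIR6820 region lay 3325 bp from the span of SOX10, a transcription factor of the neural crest and melanocyte lineage.

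The median distance to the nearest start site was 35618.5 bp, against 37181 bp in the other shared regions outside satellites and 52067 bp with satellites. A start site lay within 10 kb of 21.4% of the 789 (18.6 to 24.4), within 100 kb of 79.6% (76.6 to 82.4) and beyond 250 kb of 4.56% (3.22 to 6.26). In the others outside satellites the shares were 19.9%, 76.9% and 6.67%. Of 788 regions with a distance, 344 were upstream of the nearest start site (43.7%), and 44.2% of the others outside satellites were.

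**Figure D4:**
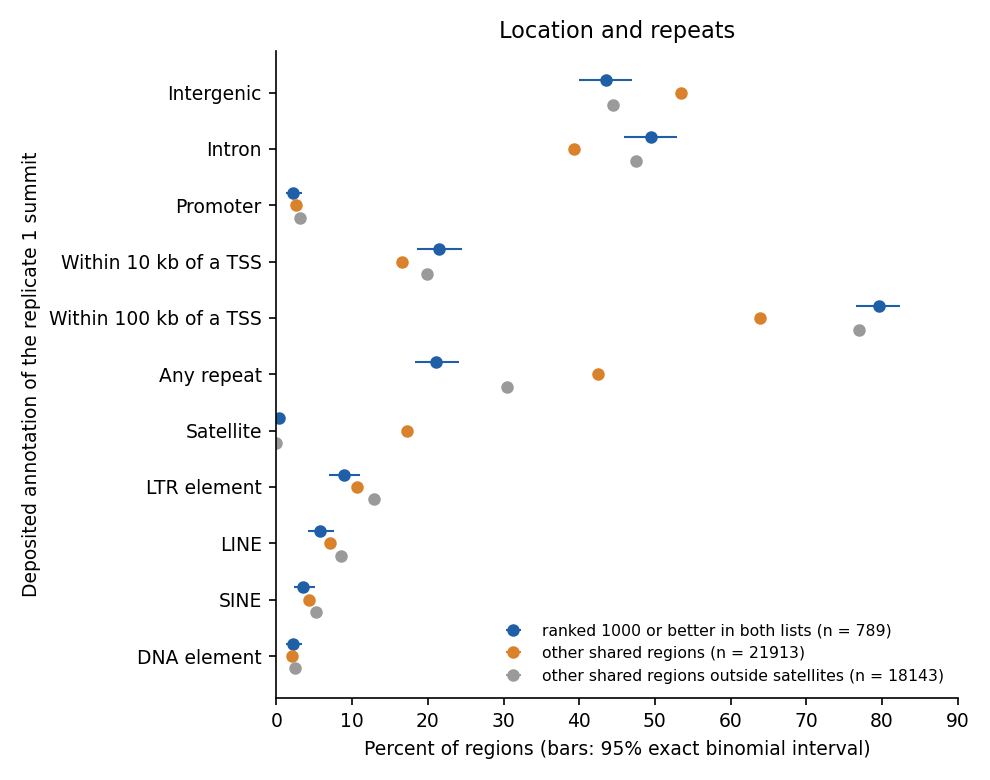
Percent of regions in each location or repeat class for the 789 regions (blue), the other shared regions (orange) and those outside satellites (grey), with 95% exact binomial intervals. Introns and intergenic sequence set blue apart from orange but not from grey, whereas any repeat was 21.0% in blue and 30.5% in grey; grey holds no satellites by definition.

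A repeat was listed at the replicate 1 summit of 166 regions (21.0%, 18.2 to 24.1), against 42.5% of the other shared regions and 30.5% of those outside satellites (29.9 to 31.2). Each of the large repeat classes was below its share in the others outside satellites. LTR elements, remnants of endogenous retroviruses, held 70 regions (8.87%, 6.98 to 11.1, against 12.8%). LINEs held 45 (5.70%, 4.19 to 7.56, against 8.59%) and SINEs 28 (3.55%, 2.37 to 5.09, against 5.24%). DNA elements held 17 (2.15% against 2.43%), for which the interval of 1.26 to 3.43 includes the other value. Of the 13228 shared regions with no repeat 4.71% were among the 789.

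The families within these classes were counted too, with no test between them. MIR elements, an ancient SINE family, were at 17 regions (2.15% against 2.07% in the others outside satellites), whereas Alu elements, the abundant primate SINEs, were at 10 (1.27%, 0.609 to 2.32, against 2.99%). L2 elements were at 19 (2.41%, 1.46 to 3.74, against 3.48%) and the L1 family at 17 (2.15%, 1.26 to 3.43, against 4.30%). The intervals of Alu and L1 end below the values of the others, and those of MIR and L2 include them. CR1 elements, an ancient LINE family, were at 6 regions (0.760%, 0.280 to 1.65, against 0.480%).

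The strongest LTR regions were a MER70C element with STXBP6 nearest (685.2 and 768.9), a MER72 element with HAUS5 nearest (556.2 and 736.9) and an LTR1F1 element with LOC101928516 nearest (467.7 and 630.1). Among LINEs they included an L2a element with NOV nearest (413.0 and 587.2) and an L1ME1 element with MEAT6 nearest (418.4 and 573.7). All 5 scored above the medians of the 789 in both replicates, which is largely set by naming the strongest of each class. Among SINEs a MIR3 element with LINC02205 nearest (617.3 and 653.2) and an AluYh3a3 element in PPP4R4 (546.9 and 703.0) came first, followed by a MIR element in CFDP1 (416.6 and 499.4). DNA elements were led by a MER20 element in MBOAT2 (594.0 and 785.1), with an Eulor9C element (356.0 and 493.7) and a MER63A element (316.0 and 512.6) next. The 2 simple repeat regions had LIF-AS1 (519.7 and 640.8) and ST3GAL6 (180.1 and 272.4) nearest, and by the replicate 2 annotation there were 5 such regions.

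No single named repeat supplied many of the regions. There were 102 named repeats among them, of which 72 occurred once, and the most frequent, L2a and L2b, had 6 each. MER70C, an LTR of the ERVL group, held 3 of the 789 regions out of 14 shared regions in that repeat (21.4%, 4.66 to 50.8). LTR3A, an LTR of the ERVK group, held 4 of 17 (23.5%, 6.81 to 49.9). All 4 LTR3A regions lay upstream of copies of the TP53TG3 gene family on chromosome 16 or a fragment assigned to it, at 6907 to 6931 bp from the start site. Their scores were 150.1 to 239.0 in replicate 1 and 271.7 to 358.3 in replicate 2. Copies at near-identical distances can share reads, so these 4 values are uncertain as separate regions.

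Satellites, in contrast, were common among the shared regions and almost absent at the top. Only 3 of the 3773 shared satellite regions were among the 789 (0.0795%), all in alpha satellite (ALR/Alpha). A pair lay on chromosome 22 with LOC102723769 nearest, scoring 363.0 and 520.1 and then 180.3 and 297.2, and one on chromosome 17 with MTRNR2L1 nearest, scoring 233.8 and 228.0. The lists differed here. Satellites made up 8% of the first 1000 peaks in replicate 1 (6.39 to 9.86) and 0.3% in replicate 2 (0.0619 to 0.874), and 17% against 4.5% of ranks 1001 to 2000. Because a region had to rank high in both lists, the replicate 2 order set this share, and why the replicates differ was not tested.

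**Figure D5:**
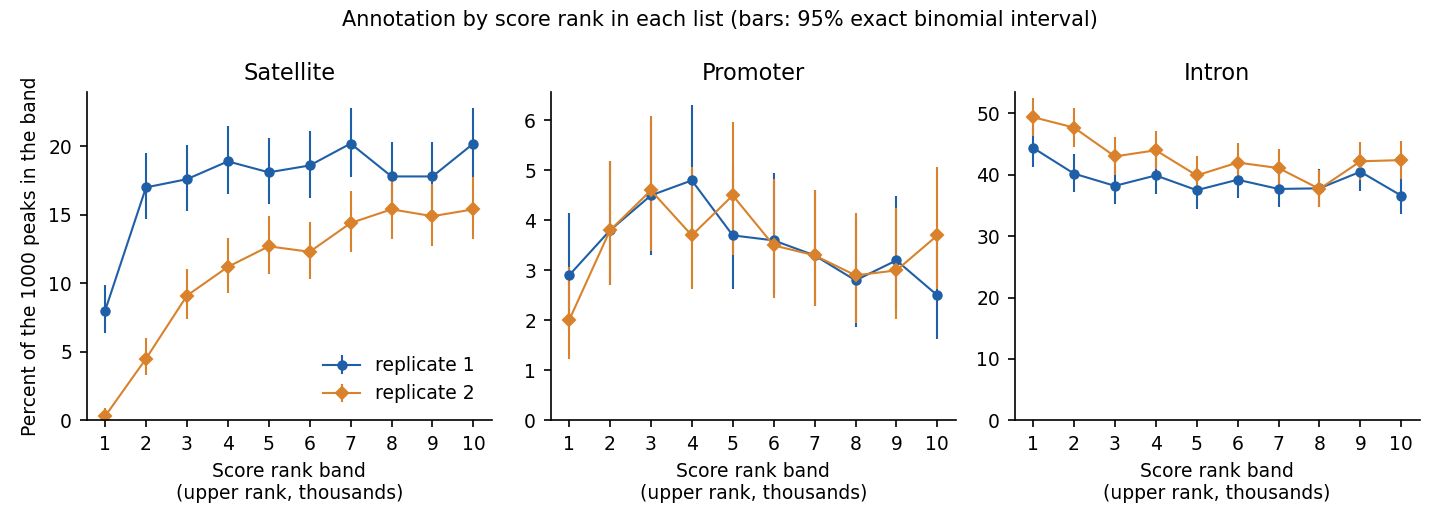
Share of satellite, promoter and intron summits among successive bands of 1000 peaks by score rank, for replicate 1 (circles) and replicate 2 (diamonds), with 95% exact binomial intervals. The satellite share is lowest in the first band of both lists, 8% and 0.3%, and the promoter share is 2.9% and 2% in the first band, 4.5% and 4.6% in the third and 2.5% and 3.7% in the tenth.

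The regions were scattered along the genome. Outside satellites, the share of a chromosome's shared regions that was among the 789 ran from 2.66% on chromosome X (8 of 301, 1.15 to 5.17) to 5.83% on chromosome 15 (39 of 669, 4.18 to 7.88), around 4.15% overall. Chromosome Y had 0 of 62, which allows a share of up to 5.78% by the exact interval. Another of the 789 lay within 10 kb of 18 regions (2.28%), forming 9 pairs, and within 50 kb of 86 (10.9%), forming 40 pairs and 2 groups of 3.

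The strongest pair lay on chromosome 8 and had HEY1, a repressor of the bHLH family induced by Notch, as nearest gene. The first summit of the pair was intergenic, 73425 bp from the HEY1 start site. The second lay 2045 bp from the first and scored 162.0 and 314.8, against 789.3 and 805.6. The EPAS1 pair, in intron 1 of the gene for the hypoxia factor HIF-2α, lay 5282 bp apart and scored 495.5 and 614.5 at one summit and 239.2 and 250.7 at the other. In both pairs the summits were unequal in both replicates. A pair near LINC01622 spanned 7158 bp.

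The 2 groups of 3 lay at FOXC1 and LINC00511. The FOXC1 group, nearest to a forkhead gene of neural crest and eye development, lay in introns of GMDS and spanned 49008 bp on chromosome 6. Its 3 summits scored 301.5 and 495.1, 278.7 and 492.9, and 214.9 and 276.0. The LINC00511 group spanned 67919 bp on chromosome 17, with 1 summit in the noncoding gene and the other two in introns of SLC39A11, and scored 285.4 and 368.9, 194.3 and 346.1, and 224.2 and 257.7. In both groups all 6 values were below those of the first 30 regions, which were themselves chosen by rank. Neighbouring peaks of any rank within 50 kb had a median of 2 both around the 789 and around the other shared regions, satellites left out of each.

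The 789 regions had 715 distinct nearest genes. Of these 648 had 1 region, 65 had 2, and FOXC1 and LINC00511 had 3, while 5 regions had no named nearest gene. The nearest gene was protein-coding for 63.9% of the regions and a noncoding RNA for 32.3%, against 65.2% and 29.3% in the others outside satellites. WWTR1, which encodes the Hippo effector TAZ, had 2 strong regions in its intron 3, with scores of 507.1 and 701.1 and of 451.2 and 618.3. DAB2, an endocytic adaptor, had 2 intergenic regions, with scores of 414.8 and 589.2 and of 153.1 and 270.0.

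The nearest start site was often not that of the gene around the summit. Of the 789, 402 lay inside the span of a protein-coding gene (51.0%, 47.4 to 54.5). For 170 of these (42.3%, 37.4 to 47.3) another gene or no named gene was listed as nearest. The region in intron 17 of SEMA3C, a secreted semaphorin, scored 514.2 and 673.3 and had CD36 nearest. MERTK, a receptor tyrosine kinase, held one in intron 17 with scores of 438.2 and 532.3 and TMEM87B nearest. An intron of CDH1, the E-cadherin gene, held one with scores of 327.4 and 475.3 (chr16:68786840) and no named nearest gene. Counts by nearest gene therefore miss some genes that contain a region.

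Gene lists were read with these limits. Of 20037 protein-coding genes, 2.25% were the nearest gene of at least one of the 789 regions. Of the 649 different genes in 20 lists, 37 were (5.70%). Within 10 kb of the start site the counts were 9 of 649, against 0.509% of all protein-coding genes, and within 100 kb 30 of 649, against 1.93%. Counting instead genes whose span held a region or lay within 10 kb of one gave 41 of 649, against 2.35% of all. Gene length and the spacing of genes were not taken into account, and no list is called apart from these counts. Percents of single lists below stand beside the 2.25% of all protein-coding genes, or 0.509% within 10 kb. Distances with a minus sign are upstream of the start site.

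Transcription factors of the melanocyte lineage were nearest in 4 of 25 cases (16%), beside 2.25% of all protein-coding genes, and in 1 within 10 kb. MITF had a region in an intron, 9984 bp upstream of a start site, with scores of 168.1 and 312.7. SOX2, a pluripotency and neural factor, had one at 40453 bp with scores of 277.0 and 445.3. SNAI2, a repressor of neural crest and mesenchymal cells, had one at 21431 bp with 184.7 and 246.7, and SOX5 one in intron 4 with 181.9 and 319.6. These lay in the lower part of the range, below the median of replicate 1 except for SOX2. SOX10 and ZEB2, a zinc finger factor of melanocyte differentiation, were reached only by gene span, at 347.4 and 307.4 and at 233.1 and 358.3. SOX5 held a further region in intron 4 for which MIR920 was nearest (178.8 and 316.2).

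Of all protein-coding genes 0.509% were nearest within 10 kb of the start site. Among genes of pigment synthesis and the melanosome 3 of 34 were nearest (8.82%), all within 10 kb. They were TRPM1, GPR143, the ocular albinism receptor of melanosomes (203.5 and 281.4, 1621 bp upstream), and RAB27A, the GTPase that ties melanosomes to actin (245.5 and 259.4, 2755 bp downstream). None of the melanin synthesis enzymes of the list, TYR, TYRP1 and DCT, was nearest to one of the 789. With 2.25% of all protein-coding genes nearest to a region, no hit among 3 genes says little. The whole list had 0 genes at a rank limit of 500 and 7 at 2000.

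SOX and forkhead factors had 6 of 29 (20.7%), none within 10 kb. Besides FOXC1, SOX2 and SOX5 they were SOX6 in its intron 1 (414.8 and 604.7), FOXP1 (273.6 and 460.1) and FOXP2 (232.5 and 338.9). The axon guidance list had 5 of 39 (12.8%), with 1 within 10 kb. They were PLXNC1, the receptor of semaphorin 7A, with 2 regions (282.0 and 330.1, 184.6 and 297.8), SEMA4D (257.2 and 367.1) and NRP2 (213.2 and 251.6). The others were EPHA5 (201.0 and 253.4) and RGMB with 2 distant regions, the stronger at 250.4 and 412.3.

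Receptor tyrosine kinases had 3 of 36 (8.33%), with 2 within 10 kb. ALK had 2 regions with itself as nearest gene, the intron 11 region scoring 440.2 and 643.7, and a further one in its span with another gene nearest (263.6 and 401.4). KIT, the receptor that melanocytes need to survive and migrate, had 2 intergenic regions 126438 and 185370 bp downstream of its start site, with scores of 288.3 and 454.5 and of 305.7 and 354.3. EPHA5 was the other.

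The cAMP pathway, through which MC1R acts, had 3 of 38 (7.89%), with 1 within 10 kb. PDE4B, which degrades cAMP, had 2 regions in intron 1, with scores of 304.0 and 463.8 and of 239.0 and 321.4. PRKAR1A, a regulatory subunit of protein kinase A, had one at 358.6 and 507.5 and held another at 463.5 and 537.3 for which WIPI1 was nearest. CRTC3, a coactivator of CREB, had one at 192.7 and 381.5.

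Adhesion and matrix lists had a few each. Cadherins and catenins had 2 of 28 (7.14%), none within 10 kb. These were CTNND1, the p120 catenin that stabilises cadherins (671.5 and 730.9, at 17090 bp), and CDH13 (194.3 and 273.4, at -37877 bp). CDH13 held a further region in intron 6 with another gene nearest (168.1 and 251.6). Proteases of the ADAM, ADAMTS and MMP families and TIMPs had 2 of 35 (5.71%), with 1 within 10 kb. These were ADAMTS9 (706.8 and 746.9, at -117634 bp) and ADAMTS17, whose 2 regions scored 441.7 and 554.6 and 270.4 and 274.3. Collagens, laminins and integrins had 3 of 43 (6.98%), none within 10 kb. They were ITGA9 (228.9 and 478.7, at 176945 bp) and LAMA1 (211.3 and 306.8, at 79090 bp). ITGB1 had 2 regions (255.4 and 347.7 at -187816 bp, 163.5 and 245.0).

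Notch pathway genes had 2 of 23 (8.70%), none within 10 kb. These were HEY1, its strongest region at 73425 bp, and RBPJ, the DNA-binding factor of the pathway (206.8 and 349.4, at 47912 bp). The RAB GTPase and lysosome list had 2 of 43 (4.65%), WIPI1 and RAB27A, with 1 within 10 kb. The Wnt (50 genes, 2%), MAPK (41, 2.44%) and TGF-beta and BMP (39, 2.56%) lists had 1 each, FZD1, DUSP6 and SMAD2. Their shares were near the 2.25% of all protein-coding genes. The histone acetyltransferase and deacetylase (30, 3.33%), apoptosis (24, 4.17%) and interferon and chemokine (34, 2.94%) lists had 1 each, KAT2B, DRAM1 and CXCR4. Of these genes only DUSP6 was within 10 kb, at 63 bp. FZD1 was at -179982 bp, SMAD2 at -73031, KAT2B at 41371, DRAM1 at 58984 and CXCR4 at -91047 bp. The known T-box factors and targets (22 genes), cell cycle genes (28) and potassium channels (33) had none by nearest gene, and 1 each by gene span, CDH1, E2F3 and KCND3.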

How the data were processed

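Each deposited list holds the peak summits of 1 ChIP sample, annotated by the authors with annotatePeaks.pl of HOMER on hg38, per the file headers. The deposited peak score has no stated scale and was compared only within its list. The distance in bp to the nearest start site, the nearest gene, the class and the repeat are also deposited values. FastQC 0.11.7, cutadapt 2.8, Bowtie2 2.3.5, MACS2 2.1.2 and SAMtools 1.9 are named in the submitters' processing notes with no role. The calling threshold and control are not given in the sources used here, and depth is unknown. Groups came from the sample titles.

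Ranking, pairing within 200 bp and counting used Python 3.11.15 with pandas 2.3.3, numpy 2.4.6 and scipy 1.17.1, and the pairing was checked on simulated data. Intervals are 95% exact binomial (Clopper-Pearson) intervals and cover counting error only. No test was run, since the design has 1 condition. Gene spans and sequences are RefSeq tables of GRCh38.p14, to which 714 of 715 gene identifiers matched. Repeats are counted only where the annotation names one at the summit. The regions and gene lists were chosen with earlier results of these data known, so no list supports a pattern independently. Named were the first 30 regions by rank sum, promoters up to 15, up to 3 regions per repeat class and per rarer location class, genes with 3 or more regions, dense groups, list genes, and regions beside the limit. WWTR1, DAB2, SEMA3C, MERTK and the LTR3A and MER70C regions were chosen after their values were seen. One region that the rule names is not reported here. Alternatives covered the rank limit, the pairing distance, ties, satellites, the annotation used, the distance to genes and each replicate alone.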

Additional observations from a re-analysis of the deposited data

How the results depend on the processing

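The number of regions was 415 at a rank limit of 500 and 1595 at 2000. At 500 the promoter share was 1.20% and 0.964% of regions lay within 10 kb of another. At 2000 any repeat was 24.3%, satellites 2.95%, and 6.02% lay within 10 kb of another. With satellite peaks left out before ranking the satellite share was 0 by construction. Each list alone gave intron shares of 44.4 to 49.4%, any repeat of 22 to 26.7%, satellites of 0.3 to 8% and 2.6 to 5.3% within 10 kb of another, with replicate 1 alone at the end farther from the main value for each. Listed genes with a region numbered 9 within 10 kb of the start site, 21 at a limit of 500 and 71 at 2000. The counts of regions and of listed genes depend on the limit or distance by construction. For the other shifts, apart from the satellites left out, the cause was not tested. The other 85 values for shares, medians and counts moved by less than their interval or by under 1.5 times. For single gene lists 47 counts moved by over 1.5 times and 73 did not. Counting by gene span was chosen after seeing the data. No paired analysis was possible because no result comes from a test. Unknown depth and an unknown score scale limit what the ranks mean.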

Other observations

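In each list 211 of the first 1000 peaks were not among the 789 regions. In replicate 1 a partner ranked beyond 1000 in the other list existed for 207 of them (median partner rank 1524, highest 4882), and in replicate 2 for 205 (median 1286, highest 3350). The annotation of these peaks differed between the lists. Of the 211 in replicate 1, 77 were satellites (36.5%), 12 simple repeats and 110 had no repeat, whereas in replicate 2 none was a satellite, 26 were LTR elements and 159 had no repeat. The 3 strongest of replicate 1 that had a partner ranked 289, 324 and 343 there and 1171, 1431 and 1759 in replicate 2. The first and the last of these were simple repeats on chromosome Y with SPRY3 nearest, and the other was an alpha satellite on an unplaced fragment. The 3 strongest of replicate 2 that had a partner had ULBP3, C16orf45 and EPHA3 nearest. They ranked 366, 388 and 419 in replicate 2 and 1101, 1178 and 1199 in replicate 1.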
